A study of Mus musculus with 2 samples.

Results

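The cells described here are tumour-like cells with high RNA levels of 5 fibroblast matrix genes, Dcn, Postn, Dpt, Cilp and Osr2, and there were 1099 of them among 24830 cells. They were chosen by a gate and a score. The gate took cells with at least 5000 unique molecular identifiers (UMIs, each standing for 1 captured RNA molecule) and at most 20% mitochondrial UMIs. Lyz2 and the sum of C1qa, C1qb and C1qc had each to be under 5 per 10000 UMIs, Ptprc and Cd3e had to be at 0, and at least 1 UMI of Hmga2, Tnfrsf12a or Igf2bp2 was needed. Cells with 10 or more UMIs per 10000 of Top2a, Cenpf, Ube2c, Ccnb1 and Cdc20 were dropped as cycling, which left 7324 gated cells. The top 15% of these by the summed level of the 5 matrix genes per 10000 UMIs, over both libraries pooled, were the members, called matrix-high cells below. The remaining 6225 are called the other gated cells.

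Both libraries came from mouse tumours labelled as xenografts of LLC, the Lewis lung carcinoma line, and were made on the 10x Genomics platform. One tumour is labelled as a control, and the other carried a short hairpin RNA (shRNA) against Gfpt2, an enzyme of the hexosamine pathway. They are called the control and the knockdown library after those labels. Age, strain and sex of the mice, the control construct and whether the shRNA line is a single clone are not given in the sources used here. The study asked how the knockdown bears on the tumour's immune cells and on signals between cells. Each group is a single library, so nothing measures the spread between tumours, and no test was made. Intervals are at 95% and cover counting error only.

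Fibroblasts build the interstitial matrix. They secrete collagen fibrils, small proteoglycans such as decorin that coat and space those fibrils, and matricellular proteins such as periostin that tie the matrix to integrins and growth factors. Transplanted carcinoma cells can take on mesenchymal features, so matrix transcripts alone do not tell a tumour cell from a host fibroblast. Dcn encodes decorin, Postn periostin, Dpt dermatopontin, a small collagen-binding matrix protein, Cilp the cartilage intermediate layer protein, and Osr2 a zinc-finger transcription factor of mesenchyme.

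The promoters of the genes that define the cells are shown because these genes were high together in the same cells. RefSeq (GRCm38.p6) held windows for 3 of the 5 genes, Postn, Dpt and Cilp. Each line gives the 100 bases before a transcription start, read 5′ to 3′ on the plus strand, and capitals mark a TATA-like match (TATAAN, searched on both strands).
Postn promoter, chr3:54361007-54361106: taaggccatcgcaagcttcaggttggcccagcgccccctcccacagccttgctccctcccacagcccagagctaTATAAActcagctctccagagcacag
Dpt promoter, chr1:164796563-164796662: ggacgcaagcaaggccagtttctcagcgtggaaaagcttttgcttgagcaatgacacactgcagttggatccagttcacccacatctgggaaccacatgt
Cilp promoter, chr9:65265080-65265179: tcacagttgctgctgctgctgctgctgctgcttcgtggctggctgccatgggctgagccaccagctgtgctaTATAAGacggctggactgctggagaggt
The match began 26 bases before the start in Postn and 28 bases before it in Cilp, and the Dpt window held none. A second Postn start, chr3:54359167-54359266, had no match and is not printed. Of 32851 such windows over all genes, 10.1% held a match. An AP-1 motif (TGANTCA), a TEAD-like motif (CATTCC) and an oestrogen receptor motif (AGGTCA) were also searched on both strands and were in none of these windows, against 2.73%, 4.71% and 5.88% of all windows. The counts used here do not bear on which start was used.

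The matrix-high cells were 539 control and 560 knockdown cells. Their median depth was 14490 UMIs over 4020 genes for control cells and 12259 UMIs over 3664 genes for knockdown cells. The other gated cells were deeper, with medians of 19344 and 15516 UMIs. Median mitochondrial shares were 2.07% and 2.14% in matrix-high cells and 1.73% and 1.80% in the other gated cells. Doublets were kept, as the rule has no doublet step. Of matrix-high cells, 1.67% of the control and 1.96% of the knockdown ones were among the cells with the highest Scrublet doublet scores, against 3.18% and 2.45% of the other gated cells. The libraries shared 37 cell barcodes, and 5 matrix-high cells had a barcode found in both libraries. No barcode was a matrix-high cell in both.

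The score was graded, with no gap at the threshold. The lowest member had 35.03 UMIs of the 5 genes per 10000 and the highest cell outside had 35.00. The next members had 35.03 and 35.07, and the next cells outside had 34.96 and 34.94. Within 5 per 10000 of the threshold lay 245 cells above and 257 below. The median score was 49.1 in control and 48.2 in knockdown matrix-high cells, against 6.27 and 7.66 in the other gated cells. No UMI of the 5 genes was found in 3.87% of control and 3.74% of knockdown gated cells. By this score the matrix-high cells are thus the upper end of a range. The threshold was set as a share of cells on that score, so it does not bear on whether they hold a separate type.

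**Figure D1:**
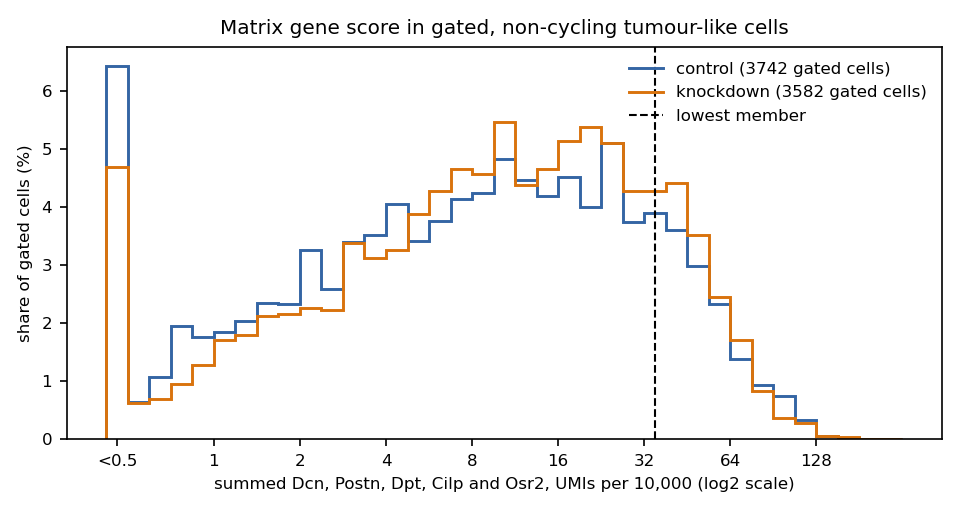
Share of gated cells (vertical axis, percent) by summed level of Dcn, Postn, Dpt, Cilp and Osr2 (horizontal axis, UMIs per 10000, log2 scale) in the control (blue) and knockdown (orange) library. The dashed line is the lowest matrix-high cell at 35.03, and both curves run through it without a gap.

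The 5 genes chose the cells, so their levels are a description. Levels are given as CPM, a gene's UMIs summed over a set of cells per 1000000 UMIs of that set. These are tags of transcript ends with no length scaling, so levels are compared between cells and not between genes. Decorin RNA (Dcn, ENSMUSG00000019929) was at 4162 CPM (4119 to 4206) among control and 3997 CPM (3952 to 4042) among knockdown matrix-high cells, against 650 and 722 CPM in the other gated cells. Periostin RNA (Postn, ENSMUSG00000027750) was at 792 and 741 CPM, against 125 and 176 CPM. Dermatopontin RNA (Dpt, ENSMUSG00000026574) was at 214 and 205 CPM, against 50.6 and 50.4 CPM. All 3 were at similar levels in the matrix-high cells of both libraries, which the shared threshold on their summed level favours. Cilp (ENSMUSG00000042254) stood furthest apart, at 128 and 121 CPM against 8.48 and 12.8 CPM. Osr2 (ENSMUSG00000022330) was at 184 and 160 CPM against 41.1 and 49.5 CPM.

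Decorin carried most of the score. It gave 76.0% of the UMIs of the 5 genes in control and 76.5% in knockdown matrix-high cells, and Postn gave 14.4% and 14.2%. Dcn had the most UMIs of the 5 genes in 490 control and 522 knockdown cells, and Postn had the most in 49 and 38. Cilp was detected in 48.6% (44.3 to 52.9) of control and 41.4% (37.3 to 45.6) of knockdown matrix-high cells, against 8.05% and 9.50% of the other gated cells. At least 3 of the 5 genes were detected in 84.6% of control and 85.4% of knockdown matrix-high cells. With every cell thinned to 5000 UMIs these shares were 67.3% and 67.0%, and Cilp was detected in 31.9% and 27.1%.

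Free RNA gives UMIs in cells that do not express a gene, so the 5 genes were also read in macrophage-gated cells, which carry Ptprc and C1q genes and no UMI of the 3 tumour genes. There were 1378 control and 912 knockdown cells of this kind, with median depths of 7224 and 6672 UMIs. Dcn was at 117 and 233 CPM in them, Postn at 24.1 and 49.1 CPM, and Cilp at 5.50 and 9.76 CPM. After thinning, Cilp was detected in 0.943% and 2.30% of macrophage-gated cells. Its shares in matrix-high cells were higher, at 31.9% and 27.1%, but Cilp is 1 of the genes that chose those cells. At least 3 of the 5 genes were detected in 2.03% and 5.81% of macrophage-gated cells without thinning, and in 1.45% and 4.39% after it. Free RNA and mixed cells therefore cannot be told apart here. Each of the 5 genes was higher in macrophage-gated cells of the knockdown than of the control library, and the part of this in the comparisons between libraries below was not tested.

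To read each gene in cells it had not chosen, it was left out in turn and the top 15% was taken by the other 4. Cilp was at 114 CPM in the control cells so chosen and at 10.1 CPM in the rest, a log2 ratio of 3.50 (3.35 to 3.64). In the knockdown library it was at 107 and 14.9 CPM, a log2 ratio of 2.85 (2.70 to 2.99). Dpt had log2 ratios of 1.91 for control and 1.84 for knockdown cells, Osr2 1.77 and 1.41, and Postn 1.70 and 1.47. Dcn, chosen by the 4 lesser genes, was at 2355 against 885 CPM in the control library and at 2424 against 955 CPM in the knockdown library. Each gene was thus higher in cells picked by the others. The rule for matrix-high cells was set with earlier results of these data known, which favoured this in advance, so it is a description only. With Postn, Dpt, Cilp or Osr2 left out, 86.8% to 97.6% of the cells so chosen in either library were matrix-high cells. Those sets were therefore largely the same cells. Without Dcn, 57.4% of the control and 55.8% of the knockdown cells so chosen were matrix-high cells, so decorin largely decides which cells are in.

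The name was checked against markers. Xist, the RNA of the inactive X chromosome in female cells, was at 2.37 CPM among control and 3.30 CPM among knockdown matrix-high cells, against 506 and 442 CPM in macrophage-gated cells. It had a UMI in 18 control and 21 knockdown matrix-high cells. In the other gated cells it was at 2.57 and 3.46 CPM, with overlapping counting intervals, so Xist was about as low in matrix-high cells as in the rest of the gate. Uty, Eif2s3y and Kdm5d, genes of the Y chromosome, were at 0 in matrix-high cells, and Ddx3y, also on the Y chromosome, had 31 and 12 UMIs. Hmga2, a chromatin protein of tumour and embryonic cells that the gate used, was at 92.3 and 124 CPM, against 237 and 230 CPM in the other gated cells. The epithelial keratins Krt8, Krt18 and Krt19 were at 0. Vim, a mesenchymal filament protein, was at 1751 and 1648 CPM, against 2257 and 2216 CPM in the other gated cells.

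Some fibroblast markers were present and others nearly absent. Pdgfra, the receptor that marks most fibroblasts, was at 112 and 127 CPM in matrix-high cells and at 36.3 and 42.6 CPM in the other gated cells. Pdgfrb was at 38.6 and 55.4 CPM against 19.6 and 27.2 CPM. Col3a1, the chain of type III collagen, was at 4524 CPM (4479 to 4569) and 3981 CPM (3937 to 4027), against 1132 and 1429 CPM. Col1a2, a chain of type I collagen, was at only 4.61 and 11.7 CPM, close to the 5.14 and 9.56 CPM of the other gated cells. Lum, the proteoglycan lumican, had 49 and 19 UMIs in all matrix-high cells and 10 and 22 in the other gated cells. In matrix-high cells Thy1 had 5 and 2, Pi16 had 6 and 6, and Dpp4 had 2 and 2. The smooth-muscle and myofibroblast genes Acta2 and Tagln had 20 and 15 and 1 and 2 UMIs. Lum was thus higher than in the other gated cells, by 38.8-fold and 5.86-fold, but 10 cells held 95.9% of its control UMIs. Several other genes that define fibroblasts were counted in few UMIs. On these few, Pi16 was 1.83-fold and 2.26-fold and Dpp4 3.96-fold and 3.39-fold higher than in the other gated cells. Thy1 was higher in the control and lower in the knockdown library.

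Markers of other cell types were at low levels in matrix-high cells, but not all were lower than in the other gated cells. The macrophage list (Cd68, Csf1r, Adgre1, Mrc1, Tyrobp, Fcer1g and Cd74) summed to 118 control and 152 knockdown CPM, against 103 and 126 CPM in the other gated cells and 18212 and 22031 CPM in macrophage-gated cells. Endothelial markers summed to 1.30 and 1.32 CPM with Kdr at 0, against 4.46 and 6.05 CPM in the other gated cells. Pericyte markers summed to 30.04 and 30.5 CPM, nearly all of it Cspg4, against 48.8 and 44.7 CPM in the other gated cells. Kcnj8, Notch3 and Higd1b were at 0 in matrix-high cells. The T and NK cell list summed to 8.40 and 7.52 CPM, against 3.56 and 5.05 CPM in the other gated cells. In matrix-high cells the mesothelial list summed to 0.710 and 0.660 CPM, the Schwann list to 3.19 and 2.64 CPM, and the adipocyte list to 0.237 and 0.132 CPM. The neutrophil list summed to 2.13 and 1.19 CPM, the skeletal muscle list to 1.42 and 2.90 CPM with Acta1, Myh4, Myod1 and Myog at 0, and the erythroid list to 2.48 and 10.3 CPM. Keratinocyte markers summed to 26.7 and 30.7 CPM, against 22.2 and 25.6 CPM in the other gated cells, nearly all of it Krt10, with Krt5, Krt15 and Dsg3 at 0. The macrophage, T and NK cell and keratinocyte sums were thus higher in matrix-high than in the other gated cells of both libraries, and their part in the differences below was not tested.

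Genes outside the rule were compared between matrix-high and other gated cells of the same library, as the log2 ratio of CPM, for the 11462 genes with at least 100 UMIs in both sets together in each library. Of these, 189 genes (1.65%) were over 2-fold higher in matrix-high cells in both libraries and 237 (2.07%) over 2-fold lower. In the control library alone 4.26% were over 2-fold higher and 3.78% lower, and in the knockdown library 2.03% and 2.99%. The median log2 ratio of all genes was 0.11 for control and 0.03 for knockdown cells. Higher levels of any size in both libraries were found for 47.3% of genes, with 60.3% higher for control and 53.5% for knockdown cells taken alone. Matrix-high cells were shallower than the other gated cells, and with every cell thinned to 5000 UMIs before the score 172 genes were higher and 233 lower.

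Of the genes highest in matrix-high cells, several are secreted or act outside the cell. Clec3b, which encodes the plasminogen-binding protein tetranectin, was at 13.5 CPM (11.1 to 16.2) among control and 12.9 CPM (10.5 to 15.8) among knockdown matrix-high cells, against 0.703 and 1.71 CPM. Its log2 ratio was 4.26 (3.76 to 4.78) for control and 2.92 (2.49 to 3.35) for knockdown cells. C3, the central complement protein, was at 65.6 and 50.5 CPM against 5.01 and 7.48 CPM, which is 13.1-fold and 6.75-fold higher. C1s1, a complement protease, was at 50.4 and 58.8 CPM against 5.88 and 8.03 CPM. In macrophage-gated cells C3 was also present, at 58.5 and 62.8 CPM, whereas C1s1 was at 2.40 and 4.02 CPM there. Col1a1, the other chain of type I collagen, was at 92.6 CPM (86.2 to 99.3) and 107 CPM (100.1 to 115), against 11.6 and 15.5 CPM, which is 7.98-fold and 6.91-fold higher.

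Mmp3, the protease stromelysin-1, was at 26.7 and 44.2 CPM in matrix-high cells and at 4.47 and 3.54 CPM in the other gated cells, a log2 ratio of 2.58 for control and 3.64 for knockdown cells. Enpp2, the lysophospholipase autotaxin, was at 78.5 and 63.6 CPM against 7.39 and 12.2 CPM. Rarres2, the chemoattractant chemerin, was at 31.7 and 39.4 CPM against 4.23 and 5.93 CPM. Entpd2, an enzyme that breaks down extracellular nucleotides, was at 38.2 and 31.7 CPM against 4.78 and 5.64 CPM. Plac8 was at 57.1 and 63.1 CPM against 8.13 and 11.8 CPM. Fxyd1, a regulator of the sodium pump, had log2 ratios of 3.32 and 2.76, the transcription factor genes Spib and Foxs1 had 3.26 and 2.61 and 2.29 and 2.30, and ENSMUSG00000082976 had 3.35 and 2.67. Mgp, an inhibitor of matrix calcification, had log2 ratios of 3.50 and 2.91, but 30 control and 20 knockdown matrix-high cells carried it and the top 10 cells held 85.5% and 91.8% of its UMIs.

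Shares of cells with a UMI were compared after thinning. Col1a1 was detected in 22.6% (19.2 to 26.4) of control and 24.6% (21.1 to 28.4) of knockdown matrix-high cells, against 4.09% and 6.06% of the other gated cells and 0.726% and 1.75% of macrophage-gated cells. C3 was detected in 15.8% and 14.8% of matrix-high cells and 2.40% and 3.08% of the other gated cells, but in 19.6% and 20.9% of macrophage-gated cells, so its share was not above that in another cell type. For Pdgfra the shares were 38.4% and 41.2%, against 16.9% and 18.6%, and 1.16% and 3.07% of macrophage-gated cells. Without thinning, Col1a1 was detected in 37.3% and 35.2% of matrix-high cells, C3 in 24.7% and 22.5%, and Pdgfra in 69.6% and 68.4%. At matched depth each of these 3 genes was therefore detected in a minority of matrix-high cells.

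The genes lowest in matrix-high cells were counted in few UMIs there. Igfbp7 and Igfbp3, which encode insulin-like growth factor binding proteins, had 4 and 1 and 2 and 1 UMIs in matrix-high cells, against 374 and 516 and 237 and 254 UMIs in the other gated cells. Gpihbp1, which anchors lipoprotein lipase on capillaries, had 0 and 2 UMIs against 137 and 155. Endothelial markers in sum were also higher in the other gated cells, at 4.46 and 6.05 CPM against 1.30 and 1.32 CPM. The part of endothelial cells or their RNA in these differences was not tested. In macrophage-gated cells Igfbp7 was at 2.04 and 18.8 CPM and Igfbp3 at 0.0887 and 11.5 CPM, and the part of free RNA in their levels was not tested. Nptx1, a neuronal pentraxin, was at 2.96 and 3.43 CPM against 15.1 and 16.9 CPM, a log2 ratio of -2.35 and -2.30. Fry had log2 ratios of -2.63 and -2.38, Prss56, a serine protease, -2.19 and -2.67, ENSMUSG00000100550 -3.05 and -3.77, and ENSMUSG00000109145 -2.22 and -2.38.

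**Figure D2:**
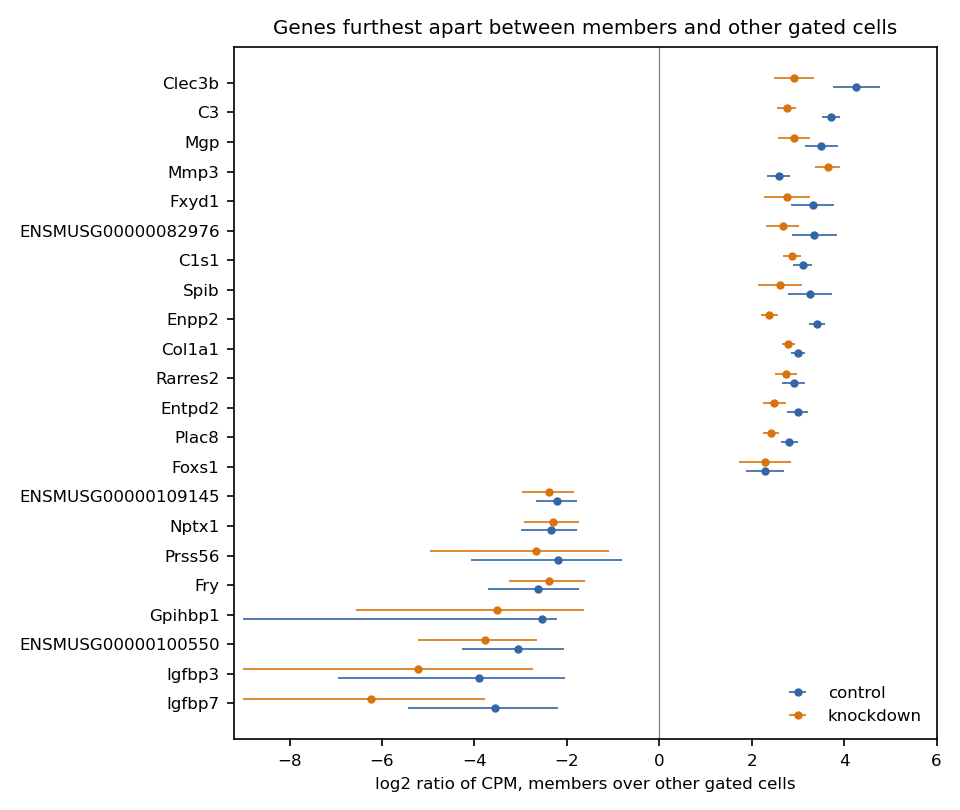
Log2 ratio of CPM in matrix-high (members) over other gated cells (horizontal axis) for 14 of the 15 genes highest and the 8 genes lowest in matrix-high cells, in the control (blue) and knockdown (orange) library. Lines are 95% counting intervals, some running past the left edge. The genes were picked for lying on the same side of 0 in both libraries, and Clec3b has the highest control value at 4.26.

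Gene lists are read against the 1.65% of all genes over 2-fold higher in both libraries. Of 5 small leucine-rich proteoglycan genes measured, Bgn, Ogn and Aspn were over 2-fold higher in both libraries and all 5 were higher, with median log2 ratios of 1.81 for control and 1.23 for knockdown cells. Bgn, which encodes biglycan, was at 63.3 and 85.5 CPM against 9.75 and 22.5 CPM. Aspn, which encodes asporin, was at 55.8 and 56.6 CPM against 6.65 and 18.0 CPM. Of 11 interstitial collagen genes, Col1a1, Col3a1, Col5a2, Col6a1 and Col6a2 were over 2-fold higher in both libraries and 10 were higher, with medians of 0.96 and 0.75. Col6a1, a chain of the microfibrillar type VI collagen, was at 813 and 836 CPM against 361 and 397 CPM. Col6a3, the third chain of the same trimer, was at 266 and 302 CPM against 213 and 219 CPM. Col6a1 was 2.25-fold and 2.11-fold higher and Col6a2 2.55-fold and 2.40-fold. Col1a2 and Col6a3 were thus not higher by amounts like those of their partner chains.

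Elastic fibre genes followed, with Fbln5, Mfap5, Emilin1 and Ltbp3 over 2-fold higher among 9 measured, 8 higher in both libraries, and medians of 1.11 and 0.72. Emilin1, an elastin-associated glycoprotein, was at 73.9 and 65.0 CPM against 13.2 and 17.2 CPM. Fbn1, the microfibril protein fibrillin-1, was at 478 and 488 CPM against 221 and 295 CPM. Of 15 matricellular genes outside the rule, Thbs3 and Matn2 were over 2-fold higher and 8 were higher in both libraries, with medians of 0.67 and 0.12. Fn1, fibronectin, was at 1620 and 1719 CPM against 643 and 977 CPM, and Sparc, a collagen-binding glycoprotein, at 1186 and 1306 CPM against 637 and 830 CPM. Of 16 genes for collagen processing, Bmp1, the procollagen C-proteinase, was the one over 2-fold higher, at 101 and 98.9 CPM against 42.9 and 47.7 CPM, and 13 were higher in both libraries. Pcolce, its enhancer, was at 336 and 503 CPM against 179 and 216 CPM.

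Matrix proteases and basement membrane genes were counted next. Mmp2, Mmp3 and Mmp19 were over 2-fold higher among 15 protease and inhibitor genes, of which 12 were higher in both libraries. Mmp2, gelatinase A, was at 118 and 68.5 CPM against 48.9 and 26.6 CPM, whereas its inhibitor Timp2 was at 1165 and 1342 CPM against 1096 and 1210 CPM. None of 8 basement membrane genes was over 2-fold higher in both libraries, 7 were higher, and the medians were 0.86 and 0.55. Hspg2, perlecan, was at 178 and 198 CPM against 91.0 and 110 CPM.

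Of 25 genes of the TGF-beta and BMP pathway, which drives matrix production in fibroblasts, 22 were higher in both libraries and 3 were over 2-fold higher, with medians of 0.55 and 0.51. Among ligands, Tgfb3 was at 142 and 119 CPM against 38.7 and 42.8 CPM, and Bmp2 at 7.69 and 8.84 CPM against 3.27 and 3.99 CPM, while Tgfb1 was at 52.3 and 54.1 CPM against 51.2 and 50.7 CPM. Among receptors, Acvrl1 was over 2-fold higher on 28 and 32 UMIs, and the co-receptor Tgfbr3 was at 203 and 195 CPM against 76.5 and 99.96 CPM. Of the targets, Id3, an inhibitor of helix-loop-helix factors, was at 220 and 185 CPM against 87.8 and 102 CPM. Bmp4 and Fst were at 0.

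Transcription factors of mesenchyme differed little. Of 23 measured outside the rule, Egr1 was over 2-fold higher, 14 were higher in both libraries, and the medians were 0.36 and 0.19. Osr1, the paralogue of Osr2, was at 114 and 134 CPM in matrix-high cells and at 142 and 153 CPM in the other gated cells, lower in both libraries where Osr2 was higher. Prrx1, a homeobox factor of limb and skin mesenchyme, was at 103 and 108 CPM against 56.1 and 63.3 CPM. Zeb1, a repressor of epithelial genes, was at 281 and 292 CPM against 167 and 186 CPM. Runx1 was at 178 and 164 CPM against 179 and 179 CPM. In the fibroblast identity list, Pdgfra, Ly6c1, Gsn, Clec3b and C3 were over 2-fold higher among 14 genes and 11 were higher in both libraries. Cd34 was at 725 and 828 CPM against 675 and 752 CPM.

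Interferon response genes were higher in matrix-high cells, and inflammatory cytokine genes were mixed. Of 10 inflammatory genes, Il33, an alarmin, was over 2-fold higher, at 23.5 and 19.8 CPM against 5.88 and 7.37 CPM, 7 were higher in both libraries and 2 lower, with medians of 0.66 and 0.22. Ccl2, which recruits monocytes, was at 1399 and 1273 CPM against 834 and 1084 CPM. All 21 interferon response genes were higher in matrix-high cells in both libraries, against 47.3% of all genes, but only Ifit2 was over 2-fold higher in both, at 79.3 and 88.9 CPM against 24.5 and 36.7 CPM. The list medians were 0.71 for control and 0.49 for knockdown cells. Cxcl10, a T cell attractant, was at 805 and 757 CPM against 302 and 489 CPM. Interferon genes summed to 4739 and 6410 CPM in macrophage-gated cells, against 5058 and 5468 CPM in matrix-high cells, and the part of free RNA in these values was not tested. Of 12 early response genes, which tissue dissociation can induce, Fos and Egr1 were over 2-fold higher and 9 were higher in both libraries.

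Genes of DNA replication were lower. The rule had removed cells by mitotic genes only. All 14 genes of S phase were lower in matrix-high cells in both libraries. Their medians were -1.28 for control and -0.90 for knockdown cells, against 0.11 and 0.03 over all genes. Of all genes, 47.3% were higher in both libraries, and the share lower in both was not counted. Mcm3, Mcm5, Mcm7, Cdc6 and Cdt1 were over 2-fold lower in both, against 2.07% of all genes. Mcm3, a subunit of the replicative helicase, was at 30.04 and 41.0 CPM against 84.4 and 83.1 CPM, and Pcna, the polymerase clamp, at 91.0 and 105 CPM against 168 and 167 CPM. Glycolysis and hypoxia genes did not move one way, with 5 of 18 higher and 4 lower in both libraries and medians of -0.17 and 0.05. Of 8 genes that mark other programmes of the tumour-like cells, Krt14, Tnnt2, Tafa5 and Klk8 were over 2-fold lower. At any size 5 were lower in both libraries, 1 was higher and 2 differed in sign between the libraries. Csmd3 was higher, by 2.94-fold in the control and 1.14-fold in the knockdown library. Tnnt2, cardiac troponin T, was at 12.9 and 9.37 CPM against 61.9 and 32.6 CPM.

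Several of these differences were graded along the score. The gated cells were put in a bin at score 0, equal-sized bins of the other gated cells, and equal-sized bins of the matrix-high cells. Col3a1 went from 276 CPM at score 0 to 2698 CPM just under the threshold and 5559 CPM in the highest bin of the control library, and from 609 to 2511 and 4713 CPM in the knockdown library. Col1a1 went from 0.783 to 37.7 and 141 CPM in the control library and from 5.49 to 43.8 and 138 CPM in the knockdown library. Pdgfra went from 9.40 to 70.4 and 127 CPM and from 14.7 to 76.2 and 157 CPM. Hmga2 went the other way, from 287 to 169 and 79.2 CPM in the control and from 353 to 156 and 96.3 CPM in the knockdown library. S phase genes in sum were at 868 CPM at score 0, 1050 CPM in the next bin and 337 CPM in the highest bin of the control library, and at 875, 998 and 331 CPM in the knockdown library. Col5a1 was higher only up to the threshold, at 55.2 and then 159 CPM in the control library, and at 150 CPM in the highest bin. Interferon genes in sum were not graded in this way throughout, at 3947 CPM just under the threshold and 4859, 4554 and 5777 CPM in the matrix-high bins of the control library, and at 5001 CPM and then 5701, 5647 and 4952 CPM in the knockdown library. Mgp showed no order within the matrix-high bins, at 22.7, 9.35 and 24.7 CPM in the control library. Median depth was 15823 UMIs at score 0, 22351 in the next bin and 14230 in the highest bin of the control library, and 10212, 17345.5 and 11663 in the knockdown library, and its part in these trends was not tested.

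**Figure D3:**
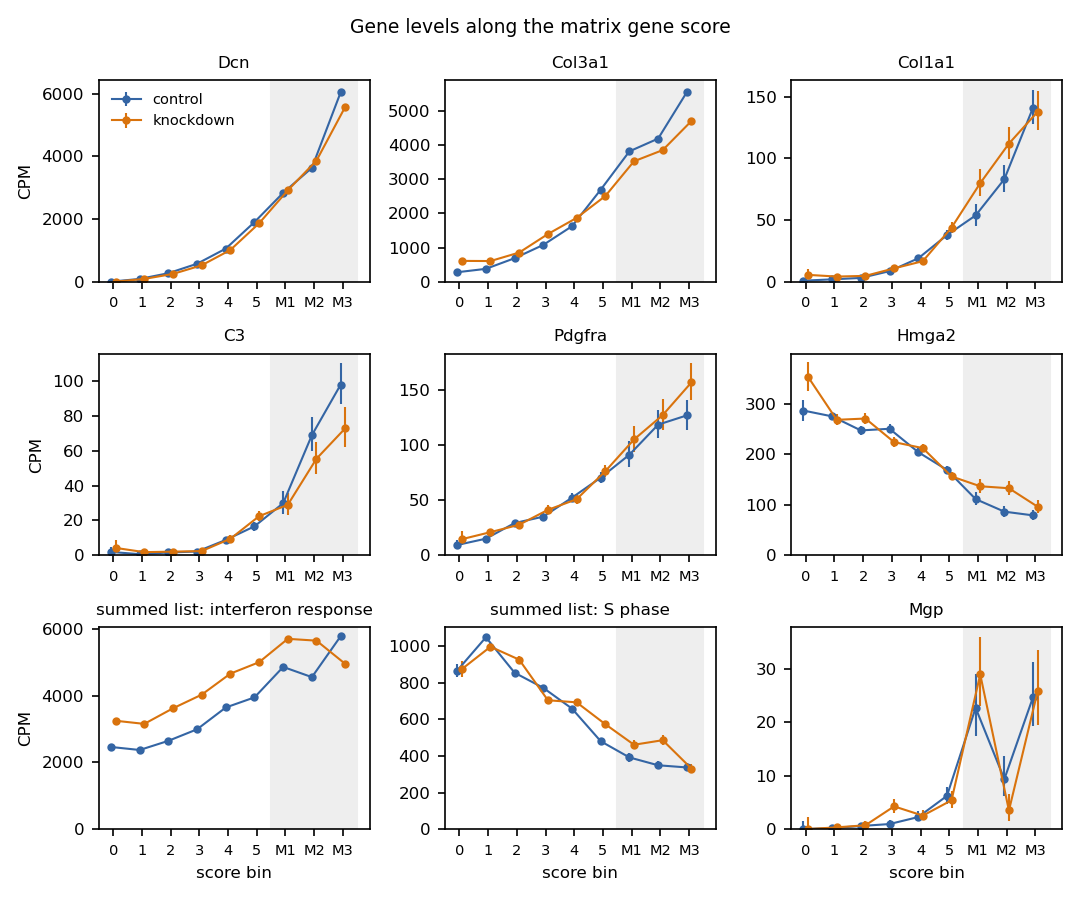
Level (vertical axes, CPM) of Dcn, Col3a1, Col1a1, C3, Pdgfra, Hmga2 and Mgp and of the summed interferon and S phase lists along the score bins (horizontal axes: 0, then 1 to 5 for the other gated cells, and M1 to M3 shaded for matrix-high cells) in the control (blue) and knockdown (orange) library. Bars are 95% counting intervals; Col3a1 climbs to 5559 and 4713 CPM in the highest bin while Hmga2 goes down to 79.2 and 96.3 CPM.

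Matrix-high cells in which Postn outweighed Dcn differed from the rest in some matrix genes. In the 49 control and 38 knockdown cells led by Postn, Mgp was at 134 CPM (92 UMIs) and 229 CPM (102 UMIs), against 8.63 and 6.31 CPM in the cells led by Dcn. Col1a1 was at 256 and 355 CPM against 78.2 and 91.9 CPM, a log2 ratio of 1.71 (1.46 at the lower bound) and 1.95 (1.69 at the lower bound). Tnc, the matricellular protein tenascin-C, was at 50.9 and 42.6 CPM against 3.09 and 12.9 CPM, and Mmp3 at 61.1 and 103 CPM against 23.7 and 40.5 CPM. Col3a1, at 4511 and 3927 CPM against 4525 and 3985 CPM, and Pdgfra, at 102 and 117 CPM against 113 and 128 CPM, were alike in the pair of sets. The groups were cut from genes of the same cells, so this is a description.

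The first question for the knockdown is how many gated cells were matrix-high. They made up 14.4% (13.3 to 15.6) of 3742 gated control cells and 15.6% (14.5 to 16.9) of 3582 gated knockdown cells, a ratio of 1.09 (0.929 to 1.27). A difference in share was not detectable at this depth. They made up 4.50% of all control and 4.36% of all knockdown cells. The gate of 5000 UMIs kept 8763 of 11977 control and 8213 of 12853 knockdown cells, and the knockdown library was the shallower, with a median of 7496 against 10312 UMIs.

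Gfpt2 (ENSMUSG00000020363), the gene the shRNA targets, was not detectably lower in the matrix-high cells of the knockdown library. It had 13 UMIs in control and 21 UMIs in knockdown matrix-high cells, or 1.54 CPM (0.819 to 2.63) and 2.77 CPM (1.71 to 4.23), a log2 ratio of 0.85 (-0.22 to 1.97). In the other gated cells it had 116 and 17 UMIs, or 1.73 and 0.330 CPM, a log2 ratio of -2.39 (-3.22 to -1.65). The ratio in matrix-high cells was higher than in the other gated cells by 3.24 on the log2 scale, with a range of 1.43 to 5.19 allowed by counting error. Gfpt2 was detected in 1.86% of control and 3.04% of knockdown matrix-high cells, and in 0.0726% and 0.329% of macrophage-gated cells. After thinning the order of the libraries turned, with 0.742% (4 cells) and 0.536% (3 cells) of matrix-high cells. The log2 ratio was 0.37 with the top 10%, 0.35 with the top 20%, 0.05 with cycling cells kept and 1.403 without cells carrying Krt16. Krt16-carrying cells, 16 control and 12 knockdown cells of the matrix-high set, held 38.5% and 9.52% of its UMIs there. Gfpt2 thus followed the label in the other gated cells, while in matrix-high cells the few UMIs did not show a lower level. Whether the matrix-high cells carried the shRNA cannot be told from these counts, and the directions below are between the libraries as labelled. Gfpt1, the paralogue, was at 38.9 and 34.8 CPM, a log2 ratio of -0.16, and the 6 hexosamine pathway genes counted had a median of -0.03.

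Within matrix-high cells few genes differed between the libraries. Of 7815 genes with at least 100 UMIs in at least 1 library, 7 (0.0896%) were over 2-fold higher in the knockdown library and 20 (0.256%) over 2-fold lower, and the median log2 ratio of knockdown over control was -0.02. In the other gated cells 47 of 11596 genes (0.405%) were over 2-fold higher and 25 (0.216%) lower, with a median of 0.04. Higher levels of any size were found for 44.3% of genes in matrix-high cells and 61.3% in the other gated cells. The floor of 100 UMIs was the same for pools of unlike size. These were 8454478 control and 7580423 knockdown UMIs in matrix-high cells, and 66876000 and 51442247 in the other gated cells. Genes at lower levels therefore count only in the other gated cells, and these shares are over unlike sets of genes. The genes of the rule chose these cells by 1 threshold for both libraries, so their log2 ratios are a description only, at -0.06 for Dcn, -0.09 for Postn, -0.07 for Dpt, -0.08 for Cilp and -0.20 for Osr2.

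Among the genes furthest lower in the knockdown library, Slurp1, Lcn2, Spp1 and Krt16 had most of their control UMIs in few cells. All 10 genes named as lowest passed the floor of 100 UMIs through the control library alone, which favours a lower value in the knockdown library. Slurp1, a secreted Ly6-family protein of keratinised epithelium, had 217 UMIs in control and 2 UMIs in knockdown matrix-high cells, a log2 ratio of -6.60 (-9.66 to -4.73). All 217 UMIs came from 9 cells, and 89.4% of them from cells that carried Krt16. Lcn2, the iron-carrier protein lipocalin-2, had 212 and 2 UMIs, a log2 ratio of -6.57 (-9.63 to -4.70), and 96.2% of the control UMIs came from 10 of 18 cells. Spp1, osteopontin, had 720 and 74 UMIs, or 85.2 and 9.76 CPM, a log2 ratio of -3.12 (-3.49 to -2.78), with 87.9% of the control UMIs in 10 of 65 cells. Spp1 was at 1077 and 699 CPM in macrophage-gated cells, and the part of free RNA in its ratio was not tested. The ratio was -4.13 with the top 10% and -1.89 with at least 10000 UMIs per cell. Krt16, a stress keratin, was at 45.1 and 5.14 CPM, in 16 control and 12 knockdown cells. These ratios therefore rest on few control cells each.

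Mme was less concentrated in its top cells. This gene of the membrane protease neprilysin had 262 UMIs in 62 control and 17 UMIs in 11 knockdown matrix-high cells, or 31.0 CPM (27.4 to 35.0) and 2.24 CPM (1.31 to 3.59), a log2 ratio of -3.79 (-4.59 to -3.08). The top 10 control cells held 35.1% of its UMIs and cells with Krt16 held none. In the other gated cells Mme was at 6.31 and 7.08 CPM. Its ratio was -4.53 with at least 10000 UMIs per cell and -3.01 with every cell weighted equally. Lama4, a laminin chain, had a log2 ratio of -2.32 (128 and 23 UMIs), Ramp2, a receptor partner for adrenomedullin, -2.19 (112 and 22 UMIs), and Ccn3, a matricellular protein, -2.36 (126 and 22 UMIs, with 92.9% of the control UMIs in 10 cells). Klk8, an epithelial protease, had -3.05 and Anxa8 -2.32, which were -2.14 and -1.34 with thinning before the score. Klk8, Anxa8 and Krt16 were lower in the knockdown library in the other gated cells too. The 5 genes counted that mark other programmes of the tumour-like cells, Krt16 and Klk8 among them, had a median of -0.85 in matrix-high cells. In the other gated cells their median was -0.93.

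The genes furthest higher in the knockdown library differed by less, and Dkk2, Tnc, Il4ra, Adra1b and Ptgs2 passed the floor through the knockdown library alone. Dkk2, an antagonist of WNT signalling, was at 9.34 CPM (7.40 to 11.7) among control and 24.0 CPM (20.6 to 27.8) among knockdown matrix-high cells, a log2 ratio of 1.36 (0.97 to 1.76). Esr1, the oestrogen receptor, was at 28.6 and 55.0 CPM, a log2 ratio of 0.94 (0.71 to 1.18), and after thinning was detected in 11.7% (9.10 to 14.7) and 21.4% (18.1 to 25.1) of cells, with 8.35% and 8.99% of macrophage-gated cells. Tnc was at 6.98 and 14.6 CPM, a log2 ratio of 1.07, and Itgbl1, an integrin-like secreted protein, at 27.2 and 55.4 CPM, a log2 ratio of 1.03. The same ratios in the other gated cells were 1.51 for Dkk2, 1.01 for Esr1, 0.90 for Tnc and 0.37 for Itgbl1. Grm3, a glutamate receptor, had 1.21, Il4ra 1.19, Adra1b, an adrenergic receptor, 1.17, Rab3il1 1.17, Ptgs2 0.89 and H2-Aa 0.88. H2-Aa, an antigen-presenting gene, was at 2891 and 3874 CPM in macrophage-gated cells against 18.3 and 33.8 CPM here, and without cells carrying Xist its ratio was 0.33.

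**Figure D4:**
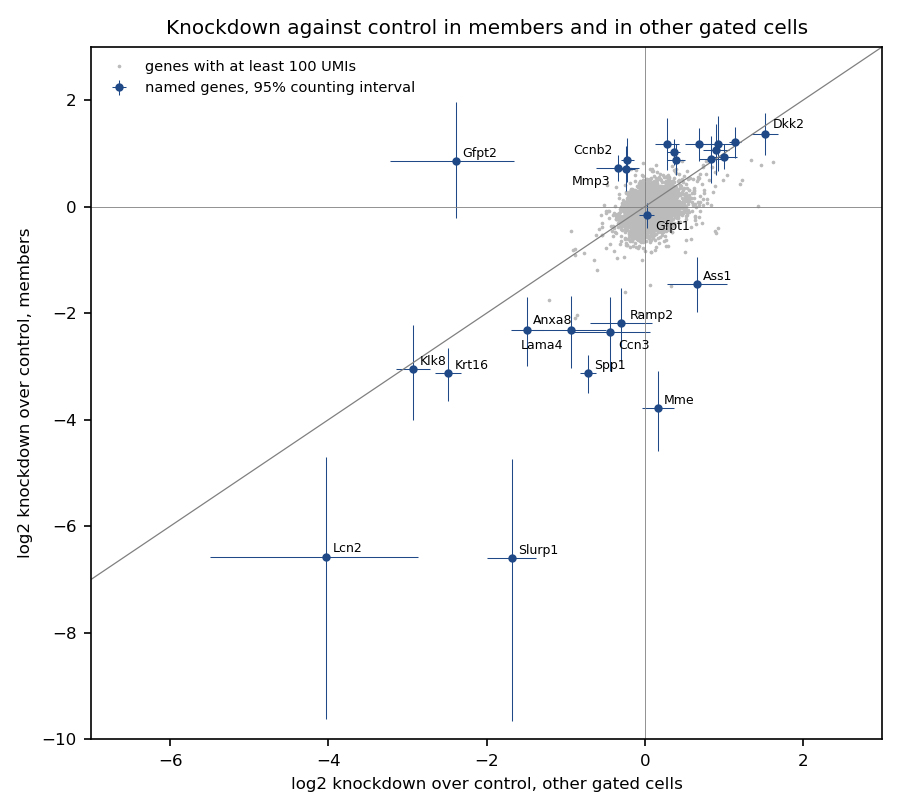
Log2 ratio of CPM, knockdown over control, in matrix-high cells (vertical axis) against the other gated cells (horizontal axis). Grey points are genes with at least 100 UMIs in matrix-high cells of 1 library, blue points are named genes with 95% counting intervals, some labelled, and the line marks equal ratios; Gfpt2 lies at 0.85 and -2.39, and Mme at -3.79 and 0.17.

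The matrix lists are given without the genes of the rule. The 10 interstitial collagen genes had a median log2 ratio of 0.02, with Col3a1 at -0.18 and Col1a1 at 0.21. In the other gated cells the same genes had a median of 0.20. Bgn, Ogn and Aspn had ratios of 0.43, 0.09 and 0.02 in matrix-high cells and 1.21, 0.67 and 1.44 in the other gated cells. Dcn in macrophage-gated cells was also higher in the knockdown library, and the part of such RNA or of mixed cells in the ratios of the other gated cells was not tested. Of 13 matricellular genes, Tnc was over 2-fold higher and Sparcl1, Spp1 and Ccn3 over 2-fold lower, against 0.0896% and 0.256% of all genes, with a median of -0.08. These 4 genes passed the floor of 100 UMIs only through the library in which they were higher.

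In matrix-high cells 44.3% of all genes were higher in the knockdown library, against which the pathway and state lists are read. Collagen processing genes had a median of 0.23 with 10 of 14 higher, and Plod2, a lysyl hydroxylase, was at 252 and 350 CPM. The TGF-beta and BMP genes had a median of -0.01 with 9 of 19 higher. Interferon response genes had a median of 0.12 with 14 of 21 higher in matrix-high cells, and 0.39 in the other gated cells. Isg15, a ubiquitin-like interferon target, was at 406 and 469 CPM in matrix-high cells and at 249 and 405 CPM in the other gated cells. S phase genes had a median of 0.21 with 10 of 11 higher, and -0.04 in the other gated cells, but with cycling cells kept the median in matrix-high cells was 0.01. Glycolysis genes had a median of 0.15 with 13 of 18 higher, and -0.07 in the other gated cells. No gene of the TGF-beta, interferon, S phase or glycolysis lists passed 2-fold.

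**Figure D5:**
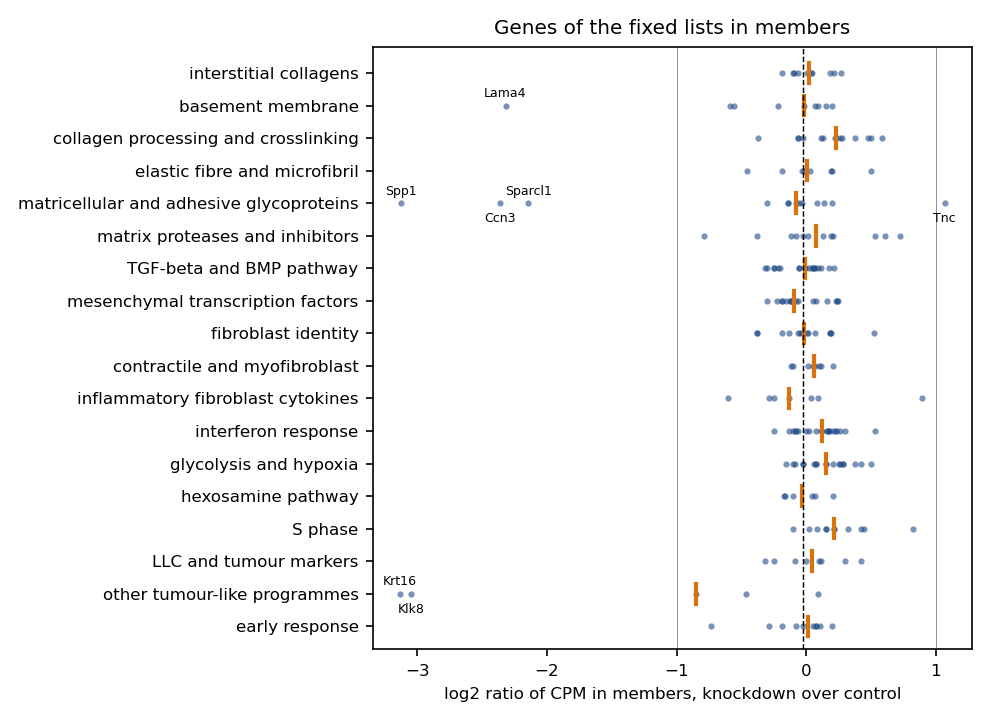
Log2 ratio of CPM, knockdown over control, in matrix-high cells (horizontal axis) for the gene lists with at least 5 genes counted (vertical axis), without the 5 genes of the rule in points or medians. Blue points are genes with at least 100 UMIs in 1 library, orange bars are list medians, the dashed line is the median of all genes at -0.02 and thin lines mark 2-fold; genes past 2-fold are named.

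The ratio of knockdown over control in matrix-high cells was set against that in the other gated cells for 7813 genes. It was higher by over 1 on the log2 scale for 2 genes (0.0256%) and lower by over 1 for 23 (0.294%). Among genes whose range did not cross 0, the lowest differences were those of Slurp1 with -4.92 (range -8.28 to -2.74), Mme with -3.95 (-4.96 to -3.04), Spp1 with -2.41 (-2.88 to -1.96) and Ass1 with -2.10 (-3.01 to -1.23). Lcn2 had a difference of -2.55, but with 2 and 6 UMIs in the matrix-high and other gated cells of the knockdown library its range, -6.76 to 0.80, crossed 0. Ass1, an enzyme of arginine synthesis, was at 15.8 and 5.80 CPM in matrix-high cells and at 1.63 and 2.57 CPM in the other gated cells. The highest by the same condition were Ccnb2, a mitotic cyclin, with 1.09 (0.61 to 1.59), Mmp3 with 1.06 (0.54 to 1.59), Ctla2a with 0.95 and Adra1b with 0.89. The ratio of Ccnb2 in matrix-high cells, 0.87, was 0.22 with the top 10%, 0.47 with thinning before the score and 0.01 with cycling cells kept. Mmp3 was at 26.7 CPM (23.4 to 30.4) among control and 44.2 CPM (39.6 to 49.2) among knockdown matrix-high cells. Several genes named here have near-identical relatives, such as C1s1, Ly6c1, Ifit3 and Hspa1b, and how reads were split between them is not given in the sources used here.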

How the data were processed

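The authors' deposited matrices hold UMI counts as whole numbers for each gene in each cell, with no normalisation, for 34097 genes in 1 control and 1 knockdown library. They were made with Cell Ranger, version 6.1.0 per the file headers and 3.1.0 per the submitters' processing notes. The genome build, the annotation and any later cell filter are not given in the sources used here. From these counts the gate and score were applied and UMIs were summed per library and set of cells, with Python 3.11.15, numpy 2.4.6, scipy 1.17.1 and pandas 2.3.3. Sums carry exact Poisson intervals, shares exact Clopper-Pearson intervals and ratios of CPM exact conditional binomial intervals. A count of 0 was put at 3 counts in a ratio. Thinning drew 5000 UMIs per cell without replacement. Doublets were kept in the main analysis. As an alternative, cells with the highest Scrublet scores (scanpy 1.11.5) were left out by rank, at 0.8% per 1000 cells of a library, which took 1148 control (9.59%) and 1322 knockdown cells (10.3%). The ratio code was tested on simulated counts. The members and the 33 gene lists were chosen with earlier results of these data known. Named genes were the genes of the rule, Gfpt2, Gfpt1 and Xist, the 15 highest and 8 lowest against the other gated cells (of 1 sign in both libraries, ranked by the value nearer 0), the 10 highest and lowest between libraries and the 4 highest and lowest differences (both with intervals not crossing 0), and up to 4 genes per list by UMIs in members or those past 2-fold. Col1a2, Lum, Thy1, Pi16, Dpp4, Acta2 and Tagln were named as markers. Other alternatives changed the score threshold, the depth and mitochondrial limits, the scaling, the UMI floor, and the Xist, Krt16 and cycling cells included. Of the 15 highest genes, 1 is not reported here.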

Additional observations from a re-analysis of the deposited data

Results flagged for a closer look

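Among the genes named by their ratio between libraries or by its difference, 4 had knockdown over control ratios of opposite sign in matrix-high and in the other gated cells, with counting intervals away from 0 in both. The difference on the log2 scale was -2.10 for Ass1, 1.09 for Ccnb2, 1.06 for Mmp3 and 0.95 for Ctla2a. With 1 library per group these differences were not tested. Ass1 had 134 UMIs in 55 control and 44 UMIs in 25 knockdown matrix-high cells, and the top 10 cells held 51.5% and 65.9% of them. Ccnb2 had 84 and 138 UMIs in 48 and 58 cells, and its ratio in matrix-high cells, 0.87, was 0.01 when cycling cells were kept. Mmp3 had 226 and 335 UMIs in 60 and 80 cells. Ctla2a was at 9.82 and 16.1 CPM in matrix-high cells and at 23.9 and 20.3 CPM in the other gated cells, and at 34.6 and 75.0 CPM in macrophage-gated cells.

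Cells that passed every step but had no UMI of Hmga2, Tnfrsf12a or Igf2bp2, 322 control and 421 knockdown cells, were outside the comparisons. Of these, 41.6% (36.2 to 47.2) of control cells, or 134, and 43.7% (38.9 to 48.6) of knockdown cells, or 184, had a score above the threshold, against 14.4% and 15.6% of gated cells. Those above it had Dcn at 4683 and 4547 CPM, Col3a1 at 5300 and 4850 CPM, Col1a1 at 93.6 and 110 CPM, Pdgfra at 126 and 162 CPM and C3 at 108 and 129 CPM. Xist was at 4.92 and 4.31 CPM in them, far under the 506 and 442 CPM of macrophage-gated cells. S phase genes summed to 209 and 240 CPM, against 359 and 433 CPM in matrix-high cells. Their median depth was 11496 control and 9776 knockdown UMIs, lower than that of matrix-high cells, and its part in the missing tumour gene UMIs was not tested.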

How the results depend on the processing

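The share ratio of matrix-high cells stayed between 1.01 and 1.11 under 9 alternatives. Taking the top 15% within each library sets it to 1.00 by construction. The count of genes over 2-fold higher in the knockdown library, 7, became 11 with the top 20%, 4 without cells carrying Krt16, 12 with cycling cells kept, 29 with a floor of 30 UMIs and 2 with a floor of 300 UMIs. The count over 2-fold lower, 20, became 59 and 5 with those floors. The 2 genes whose ratio was higher by over 1 than in the other gated cells became 0 with the top 10%, and 1 with the top 20%, with thinning before the score, without cells carrying Xist and without cells carrying Krt16. Thinning lowered the share of matrix-high cells with at least 3 of the 5 genes to 67.3% and 67.0%. A lower floor tests more genes, and for the rest the cause was not tested. Among single genes, Spp1 ranged from -4.13 with the top 10% to -1.89 with at least 10000 UMIs per cell, Slurp1 was at -4.37 without cells carrying Krt16, and H2-Aa at 0.33 without cells carrying Xist. Cilp was at 0.08 with the top 20% and Postn at 0.01 with cycling cells kept. Ccnb2 ranged from 0.01 with cycling cells kept to 0.90 with the median of all genes at 0. The genes of the rule, Gfpt2, Gfpt1, Xist and the genes named by their ratio between libraries or its difference had 382 values under the alternatives. Of these, 377 kept their direction. All 239 values of the genes named by the ratio did so, but these genes were picked for large ratios. The alternatives also share most of their cells with the main set, so a kept direction was favoured in advance. No paired analysis was possible because each group has 1 library and the labels give no replicate numbers. Depth limits genes such as Gfpt2, with 13 and 21 UMIs in matrix-high cells, and 1 library per group leaves tumour and library effects that cannot be told apart from the knockdown.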

Other observations

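Contractile genes were not higher in matrix-high than in the other gated cells. Of 9 measured, 2 were higher and 5 lower in both libraries, with median log2 ratios of -0.11 and -0.11. Tpm1, a tropomyosin, was at 459 control and 493 knockdown CPM against 549 and 570 CPM, and Cald1, caldesmon, at 661 and 608 CPM against 679 and 686 CPM. Although Cilp is named for cartilage, Col2a1, Col9a1, Col10a1, Tnmd and Scx of the cartilage and tendon list were at 0 in matrix-high cells. Sox9, a factor of cartilage and of other lineages, was at 97.1 and 109 CPM against 131 and 151 CPM.

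Of 5 genes for WNT ligands, receptors and antagonists, Fzd1, a WNT receptor, was over 2-fold higher in matrix-high cells in both libraries, on 35 and 34 UMIs, and 2 were lower. Wnt5a, a non-canonical ligand, was at 61.4 and 64.4 CPM against 71.8 and 84.7 CPM. Sfrp1, Sfrp2, Frzb, Wif1, Wnt11 and Wnt16 were at 0.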
